A study of Mus musculus with 3 samples.

Results

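Interferon-stimulated genes are described here in 3 mouse acute myeloid leukemias that lack miR-196b, a microRNA of the Hoxa cluster. The 42 genes were chosen by symbol, as known response genes of type I and type II interferon. All 42 have a row among the 28074 gene symbols of the expression table, and all 42 reached a mean of at least 1 TPM (transcript abundance scaled for transcript length and library total), as did 15181 symbols in all. Genes with that mean are called expressed below.

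The leukemias were taken from 3 moribund mice, 1 leukemia from each, which form 1 group with the genotype miR196b-/-Dnmt3afl/fl,Flt3ITD/ITD,Mx1Cre. The sample titles give Dnmt3a+/- instead, and the labels do not settle which applies. Dnmt3a encodes a DNA methyltransferase, Flt3ITD is an internal tandem duplication in a receptor kinase, and Mx1Cre places the Cre recombinase under the promoter of the interferon-induced gene Mx1. Whether the mice received an inducer of interferon, and how long before harvest, is not given in the sources used here. Spleen cells bearing c-Kit, the receptor of immature blood cells, were enriched with magnetic beads before RNA was extracted. The study's controls, leukemias with miR-196b intact, belong to a separate series and were not analysed here. No genotype difference was therefore tested, and every value below describes the knockout leukemias. Mouse numbers 1 to 3 follow accession order and serve only as names.

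Type I interferons signal through the receptor chains Ifnar1 and Ifnar2 and the kinases Jak1 and Tyk2 to a complex that holds Stat2 and Irf9 and binds the interferon-stimulated response element (ISRE) in promoters. Type II interferon signals through Ifngr1 and Ifngr2 to factors that bind the gamma-activated site (GAS). The genes switched on encode RNA sensors, transcription factors that amplify the response and proteins that block viral replication. In blood, interferon is known to act on stem and progenitor cells as well as on mature leukocytes.

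The members differed together between mice. Of the 42, 38 had their lowest value in mouse 1, 3 in mouse 2 and 1 in mouse 3, whereas of all expressed genes 24.3% were lowest in mouse 1, 32.9% in mouse 2 and 42.6% in mouse 3. The highest value was in mouse 1 for 2 members, in mouse 2 for 15 and in mouse 3 for 25, against 48.6%, 31.1% and 20.3% of expressed genes. The median level of the members on the log2(TPM + 1) scale was 3.40 in mouse 1, 4.36 in mouse 2 and 4.40 in mouse 3, and these medians averaged 4.05 ± 0.57 (SD over the 3 mice). Sets of 3 values below follow the same order of mice. Over all expressed genes the medians were 4.28, 4.15 and 4.14, with a mean of 4.19 ± 0.08. The members therefore stood below the median expressed gene in mouse 1 and above it in the other two. These counts describe 3 animals of 1 group and carry no test. In bulk RNA, fewer cells of a type and less RNA per cell cannot be told apart.

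**Figure D1:**
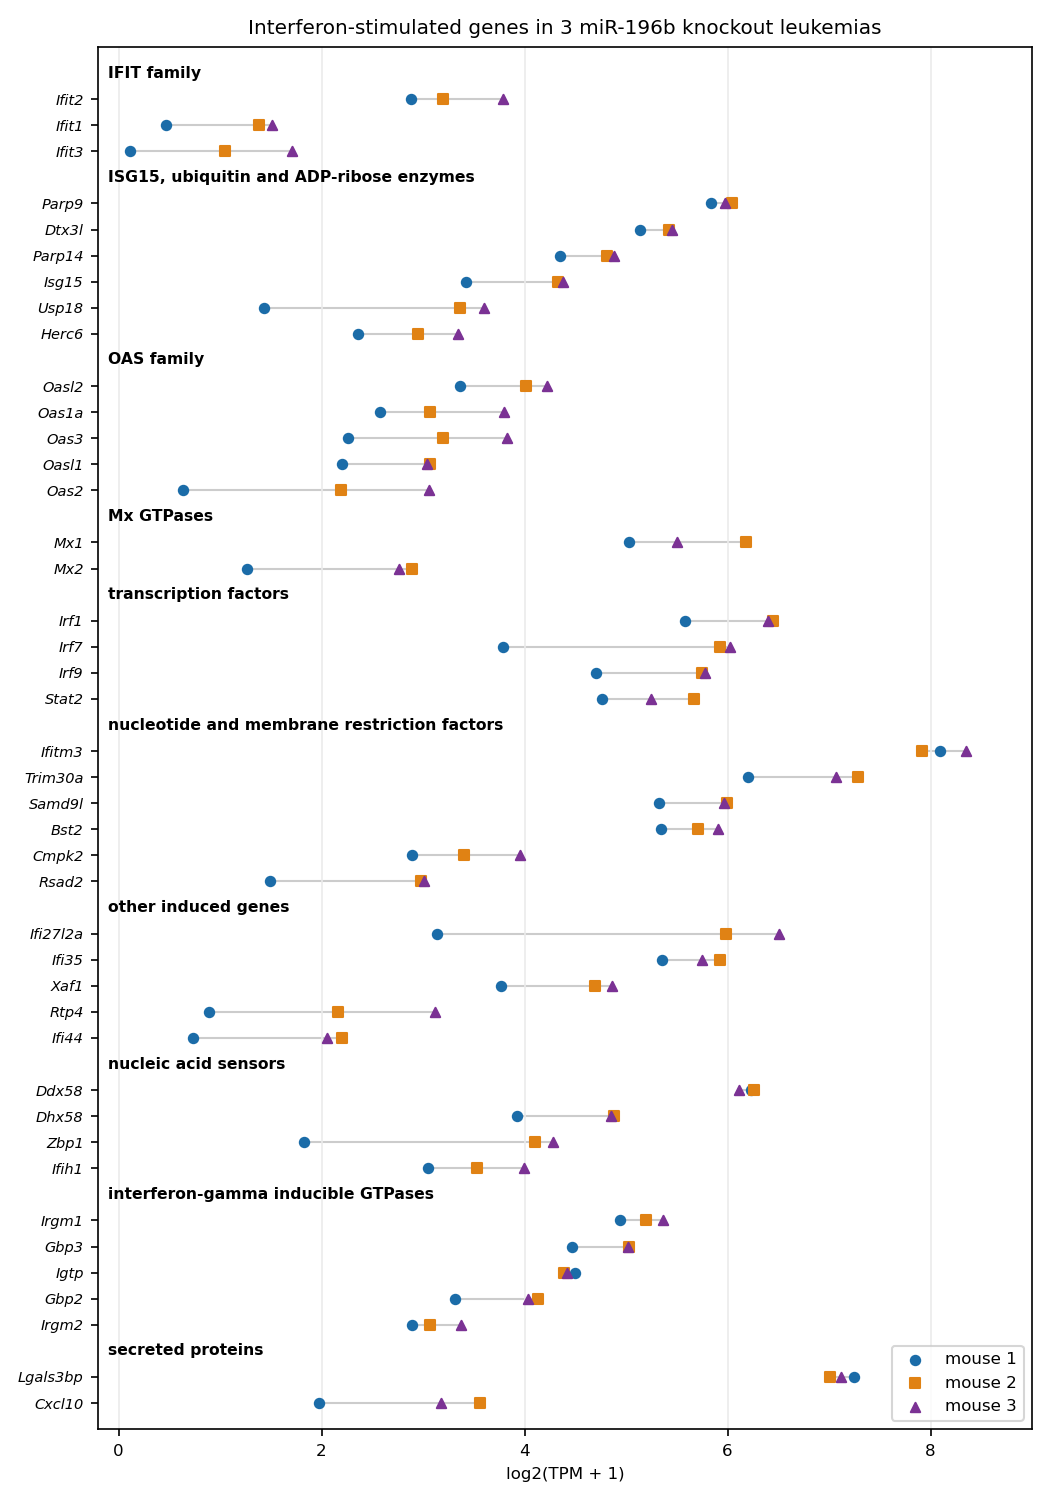
Level of each of the 42 interferon-stimulated genes in each mouse on the log2(TPM + 1) scale (horizontal axis), grouped by role and sorted by mean within a role; each symbol is 1 mouse and the grey line spans the 3 values. The circle of mouse 1 is the leftmost symbol for 38 of the 42 genes, and the widest line is that of Ifi27l2a.

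The promoter windows of the members were read from RefSeq (GRCm38.p6, 250 bases before to 50 bases after each transcription start). Of the 42 members, 32 matched a window. Oas2, Mx1, Mx2, Usp18, Zbp1, Dhx58, Parp9, Parp14, Rtp4 and Ifi27l2a did not match. Searched on both strands were the ISRE letters TTTCNNTTTC and the GAS letters TTCNNNGAA, where N is any base. A pair of ISRE matches can overlap where the repeats run on, as can an ISRE and a GAS match. ISRE letters were found in 18 of the 32 members (56.2%), against 3.99% of the 27025 genes with a window. GAS letters were found in 8 (25%), against 9.55% of those genes. Both were found in 5 members (Oas1a, Bst2, Ifitm3, Igtp and Irgm2) and neither in 11. A match describes the letters only and is not evidence of binding.

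The 250 bases before the start of 6 genes are printed 5′ to 3′ in the direction of transcription, with ISRE and GAS matches in capitals. Isg15, Ifit3 and Oas1a are shown because each has more than 1 ISRE match and was lowest in mouse 1, Irf1 for its lone GAS, and Igtp with its neighbour Irgm2 because both have a GAS followed directly by an ISRE although Igtp, unlike most members, was not lowest in mouse 1. The stretches are chr4:156200819-156201068 (minus strand) for Isg15, chr19:34583279-34583528 (plus) for Ifit3, chr5:120907526-120907775 (minus) for Oas1a, chr11:53769764-53770013 (plus) for Irf1, chr11:58199306-58199555 (plus) for Igtp and chr11:58214727-58214976 (plus) for Irgm2.
Isg15: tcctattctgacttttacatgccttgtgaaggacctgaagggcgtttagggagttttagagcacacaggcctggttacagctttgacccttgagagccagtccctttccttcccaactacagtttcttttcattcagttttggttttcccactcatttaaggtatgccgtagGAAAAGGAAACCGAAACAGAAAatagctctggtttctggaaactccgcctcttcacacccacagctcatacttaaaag
Ifit3: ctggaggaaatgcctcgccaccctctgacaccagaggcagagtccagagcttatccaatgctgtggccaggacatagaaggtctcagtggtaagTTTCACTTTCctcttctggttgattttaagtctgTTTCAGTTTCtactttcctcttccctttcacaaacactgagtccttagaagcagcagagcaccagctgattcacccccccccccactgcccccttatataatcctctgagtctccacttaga
Oas1a: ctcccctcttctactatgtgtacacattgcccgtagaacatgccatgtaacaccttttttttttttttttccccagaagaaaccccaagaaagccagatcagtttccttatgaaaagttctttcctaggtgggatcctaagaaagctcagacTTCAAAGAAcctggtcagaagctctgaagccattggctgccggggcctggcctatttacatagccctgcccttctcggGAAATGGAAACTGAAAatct
Irf1: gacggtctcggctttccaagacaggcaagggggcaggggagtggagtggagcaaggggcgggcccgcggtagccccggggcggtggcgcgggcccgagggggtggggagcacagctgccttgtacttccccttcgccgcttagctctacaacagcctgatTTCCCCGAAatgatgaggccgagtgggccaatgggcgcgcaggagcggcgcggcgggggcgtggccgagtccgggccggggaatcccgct
Igtp: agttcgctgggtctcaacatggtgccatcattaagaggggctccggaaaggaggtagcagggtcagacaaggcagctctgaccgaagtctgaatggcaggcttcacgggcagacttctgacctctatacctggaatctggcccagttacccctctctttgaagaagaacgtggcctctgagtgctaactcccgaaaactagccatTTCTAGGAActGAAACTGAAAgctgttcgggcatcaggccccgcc
Irgm2: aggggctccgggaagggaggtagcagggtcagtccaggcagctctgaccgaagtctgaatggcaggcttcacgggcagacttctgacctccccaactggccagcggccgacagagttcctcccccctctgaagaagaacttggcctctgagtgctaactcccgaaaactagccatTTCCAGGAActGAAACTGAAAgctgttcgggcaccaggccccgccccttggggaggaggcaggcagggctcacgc

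In Isg15 the 3 matches overlap and run from base -78 to base -57, counting back from the start. Those of Ifit3 begin at bases -156 and -122. In Oas1a a pair of overlapping matches lies at bases -20 to -5, with GAS letters at -98 to -90. The GAS of Irf1 lies at -90 to -82. In Igtp the GAS covers bases -45 to -37 and the ISRE -34 to -25, and in Irgm2 the same arrangement covers -75 to -67 and -64 to -55, so in each gene 2 bases separate the pair. The 18 with the letters had a median difference of 0.69 between mice 2 and 1 on the log2(TPM + 1) scale, and the 14 without had 0.66. Between mice 3 and 1 these medians were 0.79 and 0.88. The 8 members with GAS letters had smaller medians, of 0.34 and 0.53, than the 24 without, which had 0.88 and 0.94. The 10 members with no window had the largest medians, of 1.42 and 1.83, so the windows leave out many of the members that differed most. These splits were not tested.

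**Figure D2:**
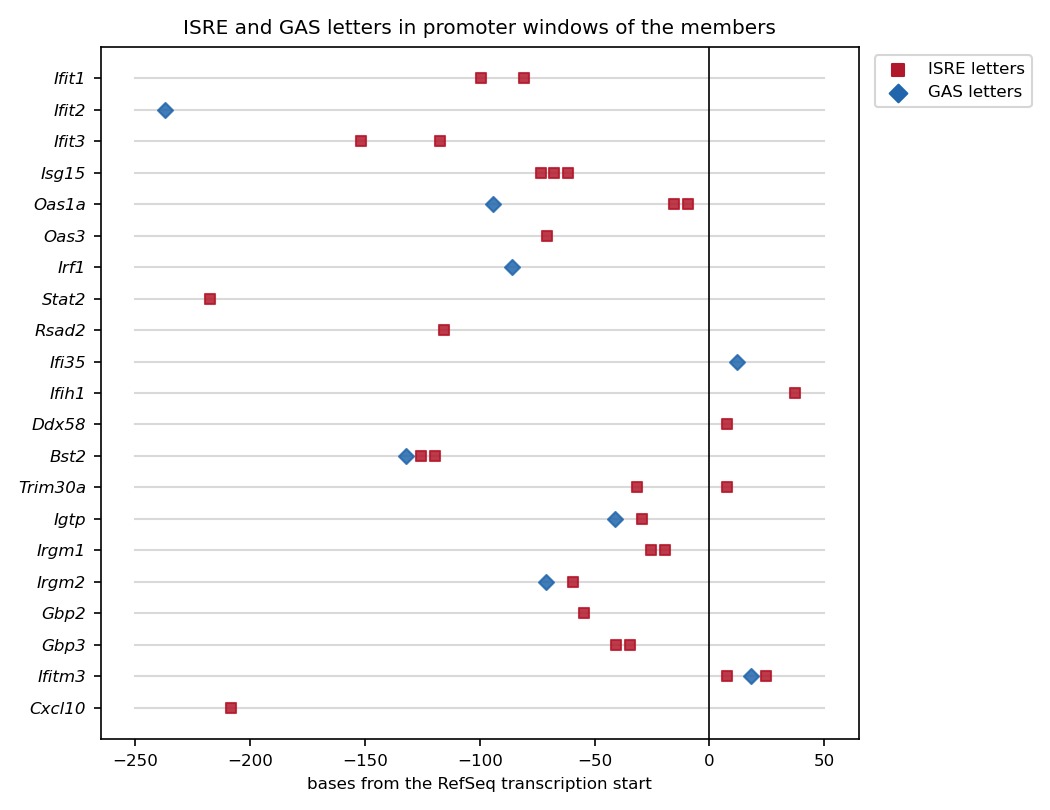
Position of ISRE letters (red squares) and GAS letters (blue diamonds) in the promoter windows of the 21 members with a match, in bases from the RefSeq transcription start (horizontal axis); each grey line is a window, and windows of different starts of 1 gene share a line. The matches of Cxcl10, Stat2 and Ifit2 lie farthest upstream, and those of Ifih1, Ddx58, Ifitm3 and Ifi35 lie after the start.

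Differences between pairs of mice were then counted at 2-fold on the log2(TPM + 1) scale, without a test, since 1 mouse stands on each side. In mouse 2, 13 members were at least 2-fold above mouse 1 and 0 were as far below it, against 2.55% and 2.09% of expressed genes. In mouse 3, 17 members were at least 2-fold above mouse 1 and 0 below, against 2.54% and 2.84%. Between mice 3 and 2 no member passed 2-fold in either direction, against 1.59% of expressed genes higher in mouse 3 and 1.3% higher in mouse 2. Of the members, 11 were at least 2-fold above mouse 1 in both other mice and 19 in at least 1 of them. The matching joint shares of expressed genes were not computed, so these joint counts stand without a comparison.

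The median difference of the members was 0.87 between mice 2 and 1, 0.91 between mice 3 and 1 and 0.08 between mice 3 and 2. For all expressed genes the same medians were -0.08, -0.13 and -0.05, so the columns as deposited were shifted slightly in the direction opposite to the members. With the columns put on a common upper quartile, mouse 1 moved by -0.08 and mouse 3 by 0.06 log2 units, 39 members were lowest in mouse 1 and 36.0% of expressed genes were. Both comparisons with mouse 1 share that mouse, so they are not independent of each other. The median SD over the 3 mice was 0.51 log2 units for the members and 0.21 for expressed genes. Without mouse 1 it was 0.12 for the members. That value was not computed for expressed genes, and as an SD of 2 values it cannot be set against the 0.21 over 3 mice.

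**Figure D3:**
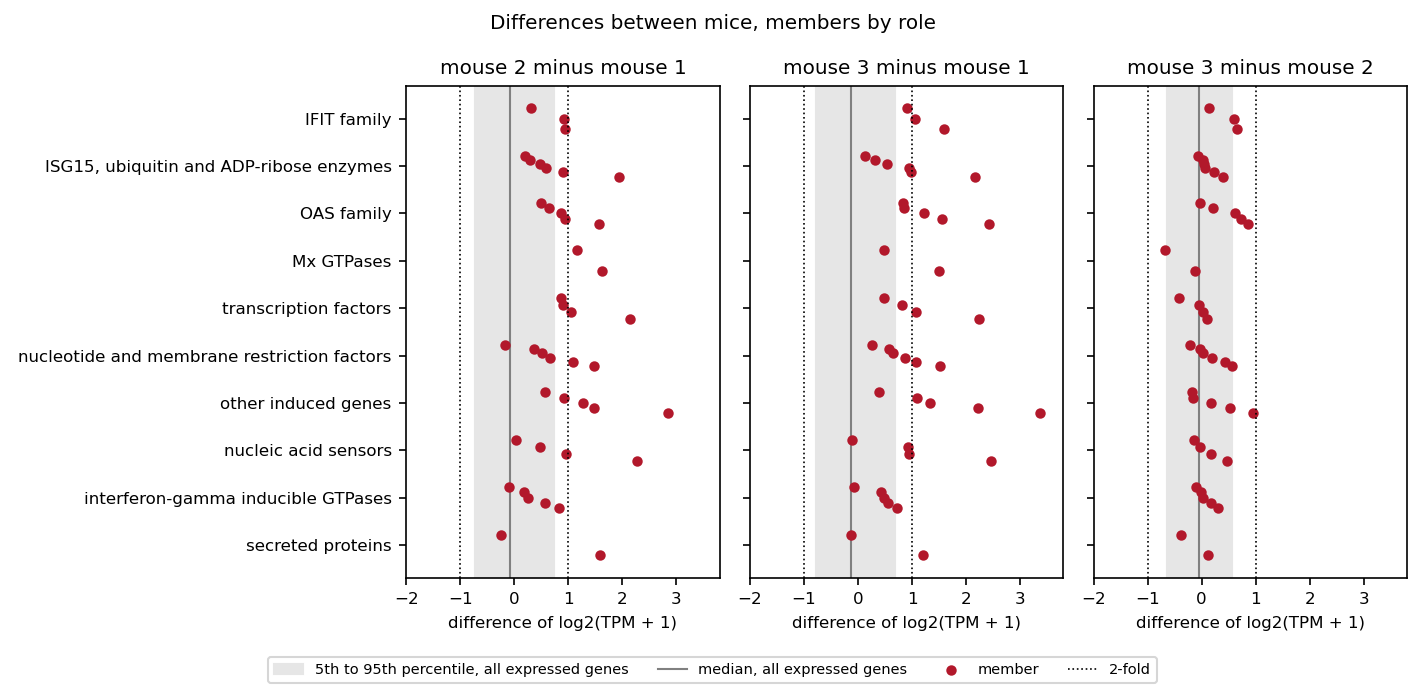
Difference of log2(TPM + 1) between each pair of mice (1 panel per pair, horizontal axis) for every member (red points, by role), with the 5th to 95th percentile range (grey band) and median (grey line) of 15181 expressed genes; dotted lines mark 2-fold. Points lie right of the grey median for most members in both comparisons with mouse 1, with a median of 0.87 and 0.91, and around it between mice 3 and 2.

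Among the 4 transcription factors of the response, Irf7 differed most between mice, with an SD of 1.27 log2 units. The others had SDs from 0.45 (Stat2) to 0.61 (Irf9). Irf7, which amplifies the induction of interferon genes, stood at 12.8 TPM in mouse 1, 60.0 in mouse 2 and 64.1 in mouse 3. Its mean was 45.6 ± 28.5 TPM (SD, n = 3), and mice 2 and 3 lay 2.14 and 2.24 log2 units above mouse 1. Irf9, the DNA-binding part of the type I complex, had 25.1, 52.8 and 53.8 TPM. Stat2, its partner, had 26.2, 49.97 and 36.9 TPM, so that mouse 3 lay between the others. Irf1, induced by both interferon types, had 46.8, 86.5 and 83.4 TPM. All 4 factors were lowest in mouse 1, and 2 of 4, Irf7 and Irf9, passed 2-fold in both comparisons with it.

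Among the sensors of foreign nucleic acid the picture was mixed. Zbp1, a sensor of Z-form nucleic acid, had 2.56, 16.2 and 18.5 TPM, among the widest ranges of the members. Ifih1, which encodes the RNA sensor MDA5, had 7.30, 10.6 and 15.0 TPM, and Dhx58, which encodes the related LGP2, had 14.2, 28.4 and 27.8 TPM. Ddx58, which encodes RIG-I, had 74.0, 75.6 and 68.3 TPM, a spread of only 0.08 log2 units. It was the only member lowest in mouse 3, and after scaling to a common upper quartile it was lowest in mouse 1.

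The families that act on viral RNA were low in level. Ifit1, Ifit2 and Ifit3 encode proteins that bind viral RNA and lie together at chr19:34550694-34650009 (GENCODE M21, GRCm38). Ifit1 had 0.379, 1.61 and 1.86 TPM and Ifit3 had 0.0846, 1.07 and 2.27 TPM, while Ifit2 had 6.37, 8.15 and 12.8 TPM. All 3 were lowest in mouse 1 and highest in mouse 3, but 61.8% of the 31-base words of Ifit3 transcripts also occur in Ifit3b, so reads of those copies cannot be assigned with certainty. The oligoadenylate synthetases make the second messenger that activates RNase L. Oas2 had 0.549, 3.58 and 7.32 TPM, a difference of 2.43 log2 units between mice 3 and 1. Oas3 had 3.79, 8.18 and 13.2 TPM, and Oas1a had 4.97, 7.41 and 12.9 TPM. These 3 genes lie side by side at chr5:120730333-120907521. Oas1a shares 68.7% of its 31-base words with Oas1g, which had 1.27, 4.11 and 4.31 TPM. The like genes Oasl1 (3.62, 7.42 and 7.22 TPM) and Oasl2 (9.32, 15.2 and 17.6 TPM) were also lowest in mouse 1. Thus 5 of 5 members of this family were lowest there, and 3 of 5 were at least 2-fold higher in mouse 3.

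The Mx proteins are large GTPases that trap viral components, although the mouse gene Mx2 is annotated as a polymorphic pseudogene in GENCODE M21. Mx1 had 31.6, 71.6 and 44.3 TPM and Mx2 had 1.41, 6.42 and 5.81 TPM. Both were highest in mouse 2, which for Mx1 lay 0.68 log2 units above mouse 3. The Mx1 row is listed under the symbol of the gene itself, and whether transcripts of the Cre transgene add to it was not examined.

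Isg15, a ubiquitin-like protein that is attached to other proteins, had 9.75, 19.1 and 19.7 TPM. Its remover Usp18, which also dampens signalling at the type I receptor, had 1.71, 9.33 and 11.2 TPM and lay 1.93 and 2.17 log2 units above mouse 1 in mice 2 and 3. Herc6, the mouse ligase for Isg15, had 4.14, 6.71 and 9.18 TPM. A tighter group was formed by Parp9 (56.1, 64.9 and 61.7 TPM), which acts with its binding partner Dtx3l (34.2, 41.8 and 42.7 TPM), and by Parp14 (19.3, 27.2 and 28.4 TPM), an ADP-ribosyltransferase. The 3 genes share a locus at chr16:35832874-35972605, where exons of Parp9 and Dtx3l overlap on opposite strands. None of them differed by 2-fold between any mice, and the SD of Parp9 was 0.10 log2 units.

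Restriction factors of membranes and nucleotides held the most abundant member. Ifitm3, which blocks entry of virus at membranes, had 272, 240 and 326 TPM, placing it at percentile 97.2 of expressed genes. Its mean was 279 ± 43.2 TPM (SD, n = 3), and it was lowest in mouse 2. Trim30a had 72.8, 155 and 133 TPM, Samd9l had 39.1, 62.6 and 61.5 TPM, and Bst2, which tethers budding virus to the cell, had 39.5, 51.4 and 58.9 TPM. Rsad2, which makes a chain-terminating nucleotide, had 1.82, 6.87 and 7.05 TPM, and its neighbour Cmpk2, a nucleotide kinase, had 6.42, 9.59 and 14.5 TPM. Both lie at chr12:26442746-26479837. Rsad2 passed 2-fold in both comparisons with mouse 1 and Cmpk2 only in mouse 3.

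The 5 members that are GTPases known for induction by type II interferon differed least among the families of members. Igtp had 21.6, 19.998 and 20.4 TPM, lowest in mouse 2, with an SD of 0.05 log2 units, the smallest of all members. Irgm1 had 29.7, 35.8 and 40.2 TPM and Irgm2 had 6.41, 7.38 and 9.40 TPM. Gbp2 had 8.96, 16.6 and 15.4 TPM and Gbp3 had 21.1, 31.6 and 31.5 TPM. Of the 5, 4 were lowest in mouse 1 and 0 passed 2-fold in any pair of mice. Their median SD was 0.25 log2 units, against 0.51 over all members. The difference between the families was not tested, and it holds for these 5 genes only. Related GTPases outside the members had SDs from 0.08 (Tgtp1) and 0.17 (Gbp7) to 0.69 (Gbp8) and 0.80 (Gbp9). Exons of Igtp and Irgm2 overlap on the same strand in the annotation and share 15.9% of the 31-base words of Igtp.

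The secreted members went separate ways. Cxcl10, a chemokine that attracts T cells, had 2.93, 10.8 and 8.06 TPM, at least 2-fold above mouse 1 in both other mice. Lgals3bp, a secreted glycoprotein, had 151, 128 and 138 TPM. It was lowest in mouse 2, and it was highest in mouse 1 as deposited but not after either scaling, as was also the case for Igtp. Of the other induced genes, Ifi27l2a had the widest spread of all members, an SD of 1.82 log2 units, with 7.80, 62.4 and 90.3 TPM and a mean of 53.5 ± 41.9 TPM (SD, n = 3), or 35.1 TPM without mouse 3. Rtp4 (0.857, 3.49 and 7.66 TPM) and Ifi44 (0.659, 3.62 and 3.15 TPM) were under 1 TPM in mouse 1. Xaf1 had 12.7, 24.9 and 28.1 TPM and Ifi35 had 39.9, 59.6 and 52.9 TPM. Exons of several members overlap another gene on the opposite strand, among them Irf7 with Phrf1, Cxcl10 with Art3 and Irf1 with Gm17334, and Irf9 overlaps Rnf31 on the same strand, so their values carry that uncertainty.

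Members of low level differed more between mice, with a median SD of 0.80 log2 units under a mean of 10 TPM and 0.45 between 10 and 100 TPM. For expressed genes these medians were 0.26 and 0.19. A TPM of at least 1 in every mouse was reached by 37 of 42 members, against 50.7% of all symbols listed and 93.8% of expressed genes. The members' share was thus close to that of expressed genes, slightly below it, and is not read as a trait of the members. The other 5 (Ifit1, Ifit3, Oas2, Ifi44 and Rtp4) were under 1 in mouse 1 alone, and all 42 reached 1 TPM in mice 2 and 3. Of the 15 members with a mean under 10 TPM, 15 were lowest in mouse 1 and 11 were at least 2-fold higher in mouse 3. Of the 5666 expressed genes in that range, 30.2% were lowest in mouse 1 and 4.09% were 2-fold higher in mouse 3. Of the 24 members between 10 and 100 TPM, 22 were lowest in mouse 1 and 6 passed that fold in mouse 3, against 20.2% and 1.59% of 8041 genes. The 3 members over 100 TPM (Ifitm3, Lgals3bp and Trim30a) took 43.8% of the summed TPM of all members in mouse 1, 32.5% in mouse 2 and 34.9% in mouse 3. Ranked by mean log2 level, neighbouring members differed by more than the larger of their SDs in 3 of 41 pairs. With 42 members ranked, neighbours lie close together, and the SD holds the gap to mouse 1 that most members share. This count therefore does not show how firm the ranking is within a mouse.

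Upstream of the members, the ligands were low. Of 13 interferon genes listed, 8 were at 0 in all mice. Ifnb1 was at 0.120 TPM in mouse 2 and Ifna2 at 0.157 TPM in mouse 1, each listed at 0 in the other mice. Ifna13 had 0, 0.332 and 1.27 TPM, and Ifng, the type II interferon, had 0.195, 0.340 and 0.480 TPM. Ifnk was the highest, at 4.74, 8.83 and 4.19 TPM, and it was lowest in mouse 3. In GENCODE M21 it lies inside the gene body of Mob3b on the opposite strand, and the counting is not stated to use strand.

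Receptor chains and their kinases were lowest in mouse 1 for 4 of 9 genes as deposited and for 5 after either scaling, against 24.3% and about 36% of expressed genes. Ifnar1 had 55.9, 57.7 and 48.9 TPM and Ifnar2 had 84.98, 97.0 and 101 TPM. Ifngr1 was highest in mouse 2, with 256, 496 and 328 TPM, and Ifngr2 had 43.3, 55.8 and 44.5 TPM. Jak1 stood at 141, 130 and 134 TPM, Tyk2 at 82.5, 102 and 64.6 TPM, Jak2 at 129, 153 and 98.4 TPM and Il10rb at 43.6, 41.5 and 43.7 TPM. The type III receptor chain Ifnlr1 was low, at 0.721, 1.19 and 3.13 TPM. Of the 9 genes, 0 were at least 2-fold higher in mouse 2 than in mouse 1 and 1, Ifnlr1, was so in mouse 3. Their median differences from mouse 1 were 0.24 log2 units in mouse 2 and 0.0014 in mouse 3.

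**Figure D4:**
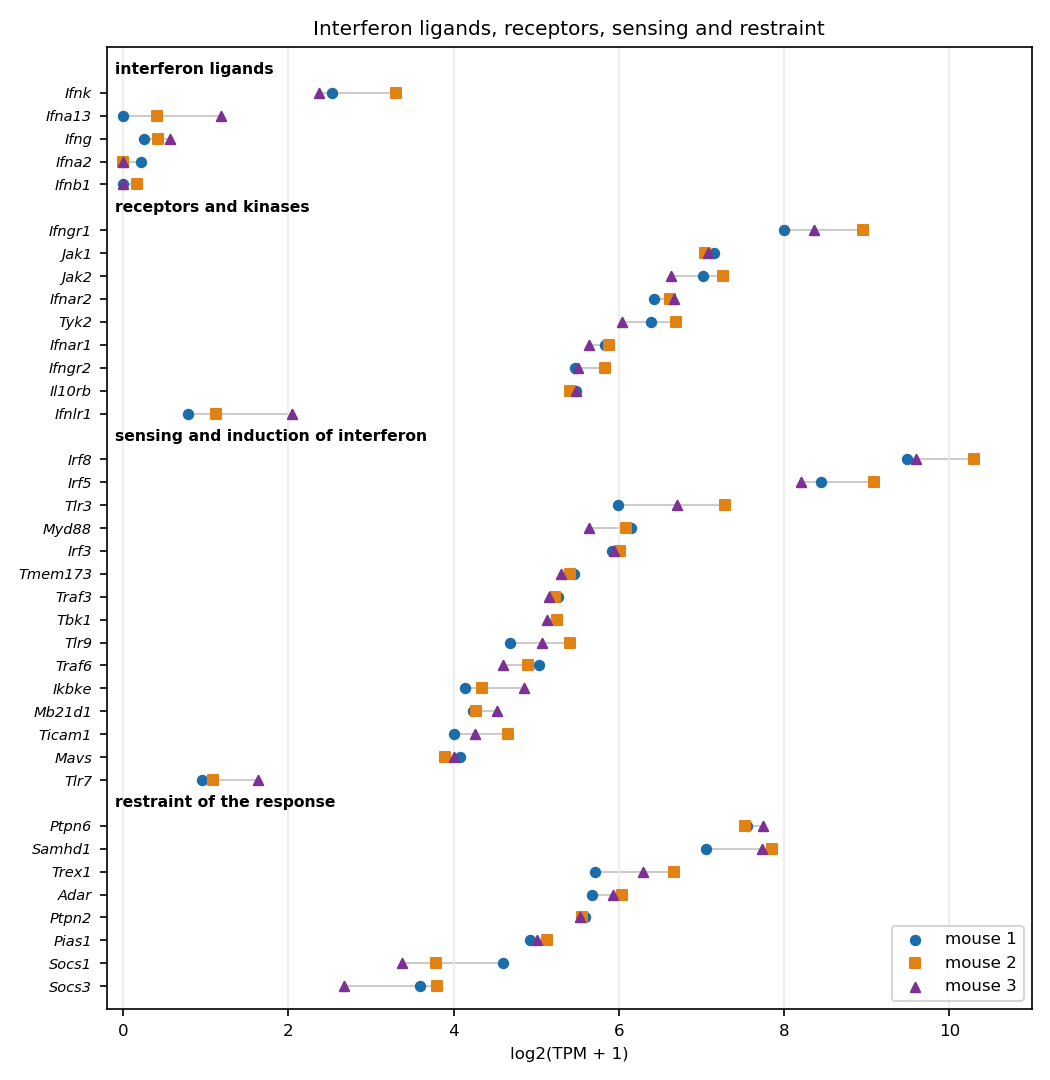
Level of interferon ligands with any value above 0, receptors with their kinases, genes of sensing, and genes of restraint in each mouse on the log2(TPM + 1) scale (horizontal axis); each symbol is 1 mouse and the grey line spans the 3 values. Socs1 is highest in mouse 1, the receptors and kinases share no single order of mice, and the ligands other than Ifnk lie near 0 except for Ifna13 in mouse 3.

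Genes of interferon induction also varied one by one. The 3 highest of this list were Irf8 (716, 1256 and 775 TPM), a myeloid and dendritic transcription factor, Irf5 (347, 544 and 293 TPM) and Tlr3 (62.7, 154 and 103 TPM), a sensor of double-stranded RNA. All 3 were highest in mouse 2, and 8 of the 15 genes of the list were lowest in mouse 1, or 10 after either scaling. Of 8 genes that restrain the response, 4 were lowest in mouse 1, or 6 after either scaling, beside the same 24.3% and 36% of expressed genes. The highest were Ptpn6 (187, 183 and 213 TPM), Samhd1 (131, 231 and 211 TPM) and Trex1 (51.4, 101 and 77.6 TPM). Socs1, a feedback inhibitor of the Jak kinases that interferon induces, ran against the members with 23.1, 12.8 and 9.36 TPM. It was highest in mouse 1 under every scaling tried, and mouse 3 lay 1.22 log2 units below mouse 1.

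A further list of 60 interferon-induced genes outside the members was examined, of which 56 were listed and 50 expressed. Of the 50, 37 were lowest in mouse 1, against 24.3% of all expressed genes. In mouse 2, 11 were at least 2-fold higher than in mouse 1, and in mouse 3, 9 were, against 2.55% and 2.54% of expressed genes, and 0 were 2-fold lower in either. The median differences were 0.48 and 0.46 log2 units. Among those past 2-fold in both comparisons were Oas1g, the guanylate-binding proteins Gbp8 and Gbp9, the DNA sensor Ifi204 and the chemokine Cxcl9, at 1.13, 4.30 and 4.67 TPM. The 3 most abundant genes of the list were Ifitm1, Ly6e and Ifi30. Ifitm1, with 2028, 1297 and 1370 TPM, was highest in mouse 1, as was Ifitm2, with 436, 256 and 306 TPM. Ly6e had 487, 524 and 549 TPM and Ifi30 had 485, 616 and 422 TPM. Ifi47, a GTPase of the family of Igtp, had 43.9, 26.6 and 29.4 TPM and was likewise highest in mouse 1. These last 3 orders, of Ifitm1, Ifitm2 and Ifi47, held after both scalings.

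Some lists of cell type markers, and the immediate early and heat shock genes, were lowest in mouse 1 like the members, and others were not. Of all expressed genes 24.3% were lowest in mouse 1 as deposited and about 36% after either scaling. Beside these, the counts of the short lists below are rough. The blast genes Kit (139, 149 and 133 TPM) and Mpo (1081, 864 and 1632 TPM) were high in every mouse, and of 7 blast genes 0 were lowest in mouse 1 as deposited and 1 after either scaling. Of the 7, 2 were highest in mouse 1, 2 in mouse 2 and 3 in mouse 3. Those highest in mouse 1 were Cd34 (202, 141 and 137 TPM) and Myb (193, 124 and 171 TPM). The list summed to 2657, 2052 and 3586. All 7 neutrophil genes were lowest in mouse 1, with a summed TPM of 2451, 6430 and 21431, and so were all 6 genes of conventional dendritic cells, with sums of 392, 871 and 594. Of 7 expressed monocyte and macrophage genes 6 were lowest in mouse 1 (sums of 538, 672 and 944 over the 11 listed genes), although C1qa, C1qb, C1qc and Cd5l did not exceed 1.36 TPM in any mouse. The exception was Ly6c2, which had the highest mean of the list and was lowest in mouse 2, with 291, 229 and 559 TPM. Plasmacytoid dendritic cells, known as strong producers of type I interferon, had 4 of 5 expressed genes lowest in mouse 1, among them the marker Siglech with 3.05, 3.55 and 3.78 TPM. The differences were small, with medians over the 5 genes of 0.17 log2 units between mice 2 and 1 and 0.08 between mice 3 and 1. The sums of this list, 102, 89.0 and 98.9, were mostly Tcf4 and Runx2, and Runx2 was highest in mouse 1 with 47.6, 31.1 and 38.7 TPM. Ly6d, of the same list, was listed at 0 in mouse 1, and Klk1 and Cox6a2 stayed under 1 TPM in every mouse. Of 7 expressed T and NK cell genes 5 were lowest in mouse 1, while their sums of 170, 123 and 168 were mostly Nkg7, which was highest there, and Cd3e did not exceed 0.978 TPM. Of 4 expressed B cell genes 3 were lowest in mouse 1, and the 5 listed summed to 47.2, 89.4 and 123, most of it Ighm, and Pax5 did not exceed 1.12 TPM. Of the 5 listed erythroid genes, with sums of 35.2, 20.8 and 65.4, none of the 4 expressed ones was lowest in mouse 1, and genes of stroma and endothelium summed to 42.8, 40.7 and 44.0, nearly all of it Pecam1. All 9 immediate early and heat shock genes were lowest in mouse 1, with sums of 1464, 4839 and 4241. Their SDs ran from 0.24 log2 units (Ier2) to 2.99 (Hspa1b), against 1.82 for the widest member. Hspa1a had 27.9, 686 and 762 TPM and Hspa1b had 29.1, 1011 and 1167 TPM. The part of all these lists in the differences of the interferon-stimulated genes was not tested.

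**Figure D5:**
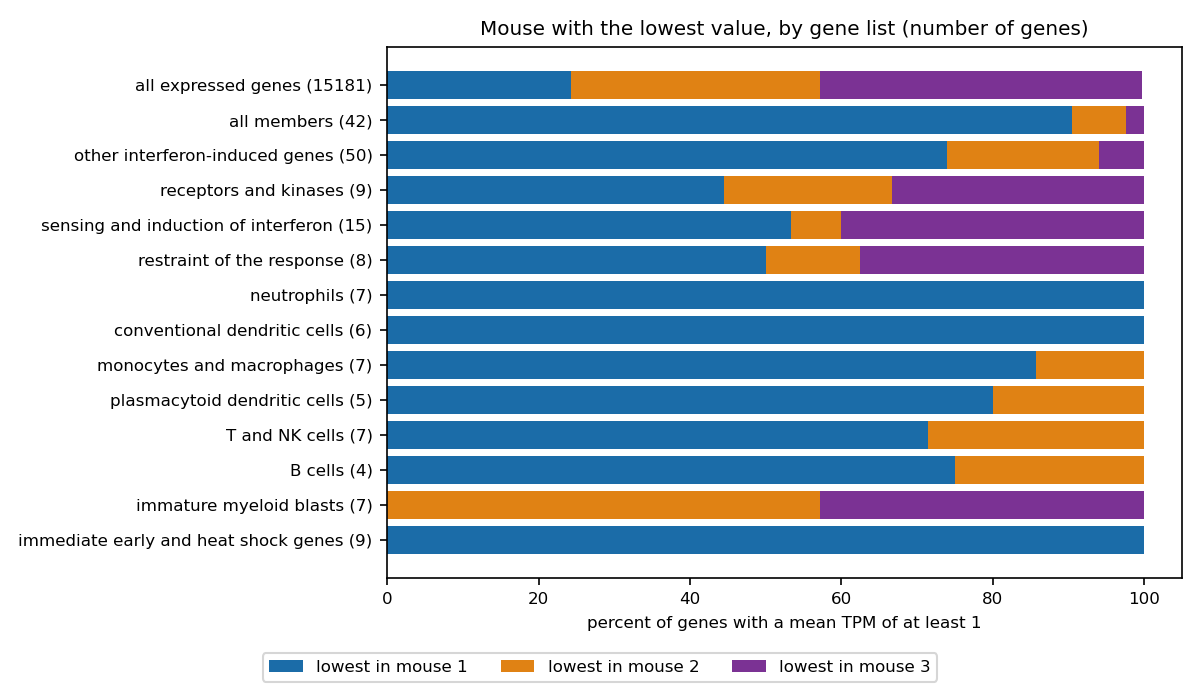
Share of the expressed genes of each list (number of genes in parentheses) whose lowest value was in mouse 1, 2 or 3 (stacked bars, percent on the horizontal axis; ties left out). The share lowest in mouse 1 is 90.5% for the members, 74% for the other interferon-induced genes and 24.3% for all expressed genes, and neutrophil, conventional dendritic, immediate early and heat shock genes are lowest there throughout.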

How the data were processed

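RNA of c-Kit-enriched leukemic spleen cells was sequenced in 3 mice of 1 group. The submitters' processing notes name kallisto and mm10, with no version or role; the annotation and the use of strand are not given in the sources used here. The authors deposited 1 table named as log2 FPKM, but its values were linear and its columns summed to between 927169 and 929731, so the deposited values were read as TPM. TPM keeps no depth: beyond the 30000000 reads planned per library per the labels, the depth is unknown and no counting error can be given. One protocol names ribosomal depletion and another an mRNA kit.

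Of 28987 rows, 795 without a symbol and 27 with a date as symbol were left out (together under 1% of each sum), and 90 symbols on several rows were summed; no member was among these. The table holds 3 per-sample columns of another series that were not used. Differences are on the log2(TPM + 1) scale, which understates those of low genes. With 1 group no test was possible. The members and gene lists were chosen with earlier results of these data known; named genes are all members, upstream genes and the 3 highest of longer lists, and other genes were named after their values were seen. Positions, exon overlaps and shared 31-base words (sense strand) are from GENCODE M21, and promoters from RefSeq (GRCm38.p6). Some genes of these lists are not reported here. The counting functions were tested on simulated data. Python 3.11.15, numpy 2.4.6, pandas 2.3.3 and matplotlib 3.10.9 were used.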

Additional observations from a re-analysis of the deposited data

How the results depend on the processing

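No paired analysis was possible because the samples form 1 group. Of 88 recomputed summary values, 77 stayed within 1.5 times the main count or within the spread between mice. Some of these could not move. No member lay on several rows (6 values), and every member had a mean of at least 1 TPM (1 and 3 values for the settings on low values). For median levels and differences, that spread was the SD of 0.57 over the mouse medians. It holds the gap between mouse 1 and the others, so staying within it is a weak check. Leaving out a mouse gave a median SD of the members from 0.12 (without mouse 1) to 0.65, against 0.51, and a number of members detected in every mouse from 37 to 42. Under both scalings 39 members were lowest in mouse 1, among them the same 38 as in the deposited values, with 0 in place of 1 lowest in mouse 3 and 0 in place of 2 highest in mouse 1. A fold of 1.5 raised the members higher in mouse 2 than in mouse 1 from 13 to 26 and in mouse 3 than in mouse 1 from 17 to 28, and gave 6 higher in mouse 3 than in mouse 2 and 1 the other way, in place of 0. With a mean TPM of at least 5 required, 11 members were 2-fold higher in mouse 3 than in mouse 1, because fewer low genes were counted. A pseudocount of 0.1 gave 3 members 2-fold higher in mouse 3 than in mouse 2. For the fold of 1.5, the minimum of 5 TPM and the pseudocount of 0.1, the shares of expressed genes were not computed. Those counts are therefore not read as a result about the members. Without mouse 3 the mean of 4 members moved by over 1.5 times, to 0.577 TPM for Ifit3, 2.06 for Oas2, 2.17 for Rtp4 and 35.1 for Ifi27l2a. Depth is unknown, so the share of counting error in members under 2 TPM cannot be stated.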
